A study of Parascaris univalens with 7 samples.

Results

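The testis library of Parascaris univalens, an intestinal roundworm of horses, was compared with the intestine and carcass libraries of the same series, gene by gene. For each gene, testis was set against whichever of intestine and carcass was higher, and whichever was lower was set against testis. Both were done on log2(RPKM + 1), where RPKM is the number of reads scaled to transcript length and to the mapped reads of the library. Of 15027 genes, 2149 were higher in testis than in both somatic tissues, 457 were lower in testis than in both, and 12421 were in neither class. A gene was placed in a class when the log2 difference was 2 or more, which is 4-fold, and the higher side reached 5 RPKM; for genes lower in testis that side was the lower of intestine and carcass. Below, "the difference" of a gene is testis minus the higher somatic tissue for genes higher in testis and testis minus the lower somatic tissue for genes lower in testis. Because 1 is added before the logarithm, the difference understates the fold change of weakly expressed genes. Each tissue is 1 library, so no spread between animals was measured, no test of significance was possible, and every count below describes these libraries.

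The series belongs to a genome study of programmed DNA elimination and holds 5 tissue libraries and 2 libraries of 5′ ends made from a mixed sample. All came from worms of the North American wildtype strain taken from horse intestine, with no treatment. The testis library is labelled male germline, and the intestine, carcass and embryo libraries are labelled male somatic. The ovary library is labelled female germline. Ovary and embryo were not part of the differences that define the classes. They entered the choice of transcript for each gene, some alternative scalings and some gene sets below, and are given as side-by-side values. Dissected tissues were frozen and ground before extraction, embryos were kept cold and extracted directly, and ribosomal RNA was depleted with a kit made for human, mouse and rat. The labels do not say how many worms were pooled or what the carcass still contained after dissection.

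In Parascaris and its relatives, cells that will form the body discard part of the chromosomes during early cleavage, while the germline keeps the whole genome, so a testis has genes that intestine and body wall lack. Nematode sperm have no flagellum and crawl on a pseudopod whose motor is a cytoskeleton of major sperm protein rather than actin. Nematode spermatids largely stop transcription before they mature, and their later steps rest on proteins already made, among them many kinases and phosphatases.

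The labelled tissues carried their markers. The 56 sperm markers summed to 39269 RPKM in testis, against 960.3 in intestine and 456.2 in carcass, and none was listed at 0 in testis. The 48 intestine markers summed to 1253 RPKM in testis, against 7850 in intestine and 2188 in carcass, with 5 at 0 in testis. The 30 muscle markers summed to 1034 RPKM in testis, against 490.8 in intestine and 6748 in carcass, with 8 at 0 in testis. These sums put each marker list highest in its own tissue. Cuticle and hypodermis genes, 187 in number, summed to 2212 RPKM in testis, against 272.0 in intestine and 53897 in carcass, and the 120 neuron markers summed to 329.3, 301.4 and 478.7 RPKM in testis, intestine and carcass. Oocyte and eggshell markers summed to 233.2 RPKM in testis, 157.4 in intestine and 118.0 in carcass, against 37951 in ovary. Depths read from the steps between low values were 31350000 reads for testis, 18550000 for intestine and 27600000 for carcass; at the median transcript length of 1325 bases, 3 reads are worth 0.0722 RPKM in testis, 0.122 in intestine and 0.0820 in carcass. In bulk tissue, fewer cells of a type and less RNA per cell cannot be told apart.

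**Figure D1:**
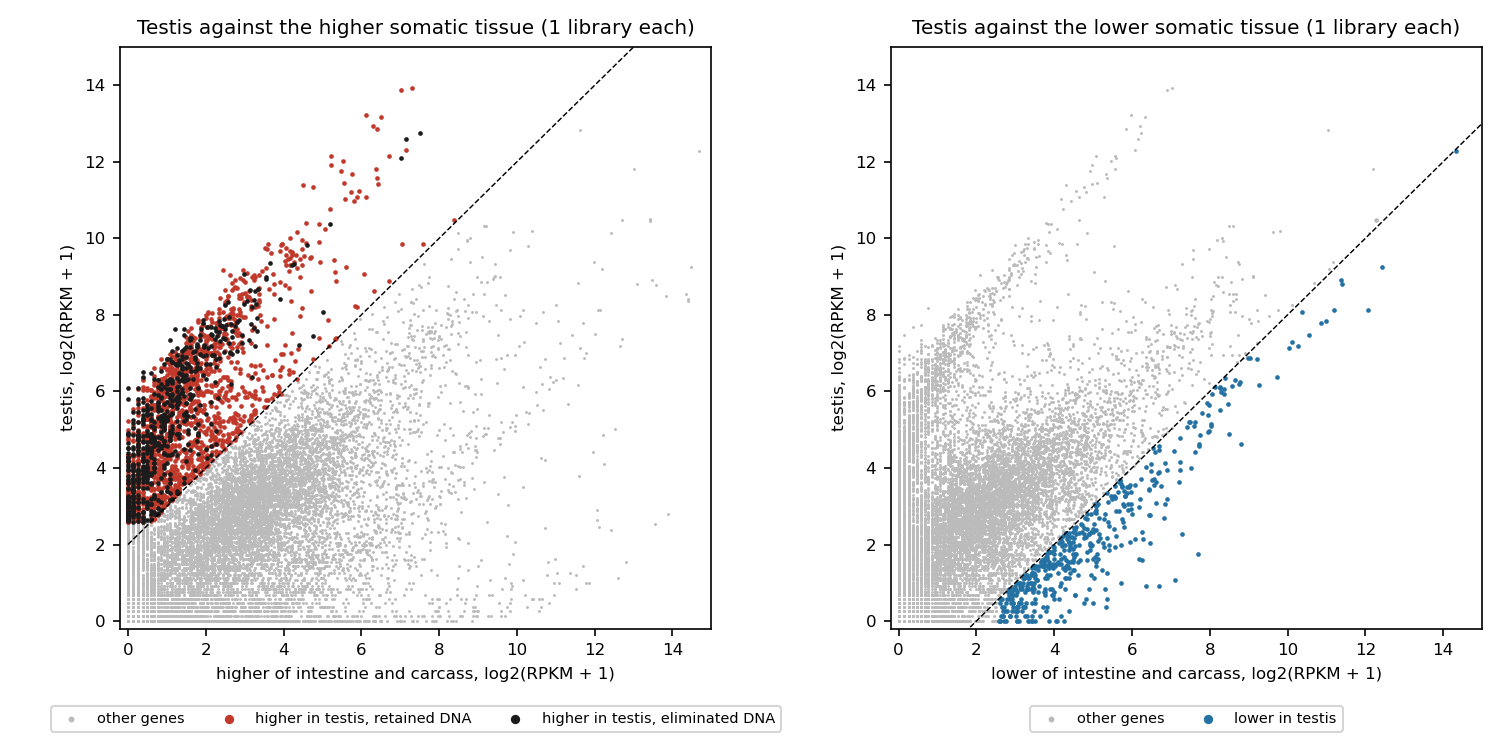
Each point is a gene, with testis on the vertical axis and the higher (left) or lower (right) of intestine and carcass on the horizontal axis, both in log2(RPKM + 1); the dashed line is the 4-fold threshold. On the left the 2149 genes higher in testis lie on and above the line with no gap at it, black for eliminated DNA and red for retained DNA, and on the right the 457 genes lower in testis lie close under the line.

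Genes higher in testis were many and far above both somatic tissues, and genes lower in testis were fewer and lay closer to the threshold. The first class held 14.3% of all genes and the second 3.04%. Over all genes the median was 0.00 for testis minus the higher somatic tissue and 0.64 for testis minus the lower one. Genes higher in testis had a median of 35.9 RPKM in testis, with quartiles of 15.2 and 88.3. Their median difference was 3.97 with quartiles of 2.97 and 4.94; 487 reached 5, 37 reached 6 and 1 reached 7. In 121 of them both somatic tissues were listed at 0. Genes lower in testis had a median difference of −2.58 with quartiles of −3.05 and −2.26, and the most extreme was −6.04. The genes higher in testis held 64.4% of the summed RPKM in testis, 1.70% in intestine and 0.990% in carcass, while the genes lower in testis held 2.37% in testis, 38.3% in intestine and 29.2% in carcass. Just inside the threshold, the nearest genes higher in testis had differences of 2 to 2.01, and just outside it 1.98 to 1.99. For genes lower in testis the nearest were −2.02 to −2 inside and −1.99 to −1.98 outside. Genes higher in testis made up 82.5% of both classes together; with upper-quartile scaling of the libraries the split was 1952 against 867 genes, or 69.2%. Genes are grouped below by 41 lists and 6 marker lists built on the annotation texts, and the median given for a list is that of testis minus the higher somatic tissue over all its members. Against the values as deposited, the count of members lower in testis moved by over 1.5 times in 25 of these 47 lists with upper-quartile scaling, in 18 with median-of-ratios scaling, in 14 as TPM (RPKM rescaled to a fixed sum) and in 8 with the 20 highest genes of each tissue left out; the count of members higher in testis moved so in 1, 2, 1 and 2 lists. A range beside a list's count is that of the same count over these 4 scalings.

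Taken against each somatic tissue alone, testis was higher than intestine in 2380 genes, 15.8% of all, and lower in 1219, or 8.11%. Against carcass alone it was higher in 2766 genes, 18.4%, and lower in 1359, or 9.04%. Of the 2149 genes above both, 1301 had more signal in intestine than in carcass, 631 had less, and 217 had equal values. A gene in either class also passes against each somatic tissue alone, so by the rule the counts with 1 somatic tissue left out could not be smaller. The annotation of 876 genes higher in testis, 40.8%, was empty or named no known protein, against 28.7% of genes lower in testis and 29.4% of all genes.

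The sperm cytoskeleton genes were almost all higher in testis. Of 50 genes annotated as major sperm protein or MSP-domain protein, 46 were higher in testis and none lower, with a median difference of 4.79. Of 13 MFP genes, which code for proteins that control the assembly of the major sperm protein filament in Ascaris, 12 were higher and none lower, with a median of 5.30. These medians stand against the all-gene median of 0.00 and the counts against 14.3%. A gene annotated as major sperm protein isoform beta, PgE404_g001 on scaffold PgE404 at positions 1462 to 4458, had 6856 (95% counting interval 6834 to 6877) RPKM in testis, against 180.2 (interval 176 to 185) in intestine and 74.0 (interval 71.6 to 76.5) in carcass. Its neighbour PgE404_g002, of the same annotation and inside PgE404_g001 on the opposite strand, had 4425 RPKM in testis, against 129 in intestine and 47.1 in carcass; how reads were shared between the 2 genes was not given. MSP-domain protein 1 (PgR011_g012) had 4529 RPKM in testis, against 105 in intestine and 46.4 in carcass, and MSP-domain protein 4 (PgR345_g001) had 2779.5 RPKM in testis, against 46.4 in intestine and 33.2 in carcass. In all 4 genes testis was far above both somatic tissues, and intestine was above carcass.

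Among the filament regulators, MFP1-beta (PgR166_g003) had 2738 RPKM in testis, against 84.9 in intestine and 30.5 in carcass, with a difference of 4.99. In Ascaris, MFP1 slows and MFP2 speeds filament assembly. MFP2 (PgR024_g052) had 2149 RPKM in testis, against 58.0 in intestine and 38.0 in carcass, and MFP2b (PgR047_g059) had 2088 RPKM in testis, against 46.6 in intestine and 17.0 in carcass. MFP3 (PgR016_g083) had 811 RPKM in testis, against 13.9 in intestine and 8.2 in carcass. Genes of both directions of control were thus at 811 RPKM or more in testis and under 100 RPKM in both somatic tissues. MFP2b and the sperm cell motility gene PgR024_g053 lie inside a gene on the opposite strand, and so does MSP-domain protein 1; 147 of the 2149 genes do, and the strand setting of the counting was not given.

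Protein phosphorylation genes were the second large group. Of 74 tyrosine kinase genes 43 were higher in testis and none lower (median 3.96), and of 48 tau-tubulin and casein kinase I genes 42 were higher and none lower (median 4.25). Both families are large in nematodes, and a kinase of each, SPE-8 and SPE-6, acts in the sperm of Caenorhabditis elegans. A Fer kinase gene in eliminated DNA, PgE050_g003 on scaffold PgE050 at positions 29313 to 30710, had 6163 (95% counting interval 6135 to 6192) RPKM in testis, against 142 (interval 136 to 147) in intestine and 70.3 (interval 67.1 to 73.6) in carcass. A second Fer kinase, PgR059_g038, had 1036 RPKM in testis, against 17.0 in intestine and 9.1 in carcass. The largest difference of the tau-tubulin and casein kinase I list was in tau-tubulin kinase 1 (PgR043_g077), with 348 RPKM in testis, against 4.2 in intestine and 3.0 in carcass, a difference of 6.07. These kinase genes were at 0.2 to 12.6 RPKM in ovary and embryo, so testis stood above all 4 other tissues. Of 108 other serine/threonine kinase genes 37 were higher and 1 lower (range lower 1 to 3; median 0.49). The one that was lower, ULK2 (PgR032X_g061), a kinase that starts autophagy in mammals, had 1.1 RPKM in testis, against 16.8 in intestine and 10.8 in carcass.

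Phosphatase genes followed. Of 73 protein tyrosine phosphatase genes 41 were higher in testis and 1 lower (median 3.34), and of 85 serine/threonine phosphatase genes 40 were higher and 2 lower (median 1.26). Type 1 phosphatase catalytic genes, whose C. elegans relatives GSP-3 and GSP-4 act in sperm, were among the highest: PgR011_g026 had 852 RPKM in testis, against 15.8 in intestine and 10.2 in carcass. The Lar-like tyrosine phosphatase gene PgR129_g011 had 484 RPKM in testis, against 8.5 in intestine and 6.2 in carcass, and its neighbour PgR129_g012, a type 1 phosphatase, had 223 RPKM in testis, against 6.0 in intestine and 2.7 in carcass. These genes were far above both somatic tissues. In the other direction, the phosphatase 1 regulatory subunit 3c gene (PgR003_g117), of a family that brings the enzyme to glycogen, had 6.6 RPKM in testis, against 62.5 in intestine and 122 in carcass, a difference of −3.06. The receptor-type tyrosine phosphatase C gene PgR011_g183 had 3.7 RPKM in testis, against 65.1 in intestine and 46.9 in carcass.

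The sperm fusion list was small. Of 16 ferlin and other spermatogenesis genes 9 were higher and none lower (median 3.41); the fer-1 product fuses membranous organelles with the sperm surface in C. elegans. The fer-1 gene PgE022_g007 had 48.7 RPKM in testis, against 1.1 in intestine and 0.8 in carcass, and fer-1 gene PgE032_g003 had 28.7 RPKM in testis and was listed at 0 in intestine, carcass, ovary and embryo. The one annotated spermatogenesis gene with the highest mean, PgR071_g057 (spermatogenesis serine-rich 2-like), had lower values in testis, with 20.9 RPKM in testis, against 70.0 in intestine and 58.6 in carcass, and was in neither class. No list of other trafficking genes was counted; single genes with large differences were named. The vesicle fusion gene VAMP3 (PgR091_g029) had 798 RPKM in testis, against 17.7 in intestine and 7.8 in carcass, and receptor expression-enhancing protein 6 (PgR026_g047), of a family that shapes the endoplasmic reticulum, had 920.4 RPKM in testis, against 14.6 in intestine and 8.6 in carcass. Phosphatidylinositol transfer protein beta (PgB13_g032), a lipid carrier between membranes, had 572 RPKM in testis, against 6.8 in intestine and 6.1 in carcass, a difference of 6.20. All of these but PgR071_g057 had both somatic tissues under 20 RPKM.

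Germline RNA regulators were higher in testis in 52.3% of the list, against 14.3% of all genes. The share was 30.5% for chromosome segregation and 18.2% for the 11 genes of the meiosis list, above that of all genes. It was 7.69% for replication and 2.94% for histone genes, under that of all genes. Of 44 Argonaute, tudor and related genes 23 were higher and none lower (median 2.26). A tudor domain gene (PgB05_g131) had 505 RPKM in testis, against 20.5 in intestine and 4.8 in carcass, and was at 0.1 RPKM in ovary and 1.7 in embryo. The DAZ gene PgE226_g001, of a family of RNA-binding proteins needed for germ cells in many animals, had 105 RPKM in testis, against 1.3 in intestine and 1.1 in carcass. The Argonaute genes ALG-4 (PgR197_g002) and CSR-1 (PgR178_g009) differed outside the testis. ALG-4, which in C. elegans acts in the male germline, had 63.5 RPKM in testis, against 4.1 in intestine and 2.2 in carcass, and was at 5.3 RPKM in ovary and 0.8 in embryo. CSR-1, which in C. elegans binds small RNAs against germline-expressed genes, had 75.8 RPKM in testis, against 2.4 in intestine and 1.1 in carcass, and was at 66.7 RPKM in ovary and 74.8 in embryo. Of the 23 genes, 7 were 4-fold or more above ovary.

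Of 105 chromosome segregation and cell division genes 32 were higher and none lower (median 1.11), and 2 of these 32 were 4-fold or more above ovary. Aurora kinase B (PgR045_g024), which corrects chromosome attachment, had 84.6 RPKM in testis, against 12 in intestine and 2.8 in carcass, and was at 44.4 RPKM in ovary and 34.6 in embryo. Of 65 replication genes 5 were higher and none lower (range higher 2 to 4; median 0.78), among them MCM10 (PgR041_g063), a replication start factor, with 25.5 RPKM in testis, against 4.1 in intestine and 3.3 in carcass. Of 11 genes on the meiosis and recombination list 2 were higher (range 2 to 4) and none lower, with a median of 0.53 that was −0.10 with upper-quartile scaling. Among these, RAD50-interacting protein 1 (PgB01_g190) had 115 RPKM in testis, against 3.0 in intestine and 1.2 in carcass, and is known in other animals for vesicle traffic and a checkpoint rather than for meiosis. Of 34 histone genes 1 was higher and none lower (median 0.91), a histone H2A (PgR059_g050) with 241 RPKM in testis, against 2.6 in intestine and 5.0 in carcass, which was at 0.8 RPKM in ovary and 0.6 in embryo. The highest histone gene by mean, H4 (PgR012_g130, inside an opposite-strand gene), had 314 RPKM in testis, against 161 in intestine and 45.2 in carcass, and was at 8832 RPKM in ovary and 7676 in embryo. This H4 gene was far lower in testis than in ovary and embryo, while the H2A gene was at most 5.0 RPKM outside testis. Tubulins, kinesins and dyneins had 23 of 98 higher and 1 lower (range lower 0 to 2; median 0.57), with the alpha tubulin gene PgR069_g015 at 327 RPKM in testis, against 17.2 in intestine and 11.4 in carcass.

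Proteasome genes were higher in testis in a larger share than all genes, translation factor genes in about the same share and ribosomal protein genes in a smaller one: 37.3%, 15.6% and 5.73%, against 14.3%. Of 59 proteasome genes 22 were higher in testis and none lower (median 0.82), and 15 of the 22 lay in eliminated DNA. Proteasome activator complex subunit 4, the PA200 activator linked to sperm histone removal in mammals, was the name of many of them. The eliminated gene PgE031_g002 had 152 RPKM in testis, against 5.1 in intestine and 1.0 in carcass, and the retained gene PgB01_g121 had 140.3 RPKM in testis, against 2.1 in intestine and 1.1 in carcass. Regulatory subunit 8 of the 26S proteasome (PgR036_g010), the highest gene of the list by mean, had 139.8 RPKM in testis, against 42.5 in intestine and 66.8 in carcass, and was in neither class. Of 96 translation factor genes 15 were higher and none lower, 14 of them in eliminated DNA, with a list median of 0.19 that was −0.20 with upper-quartile scaling and −0.10 with the 20 highest genes left out of the scaling. An eIF4E-3 gene (PgB39_g003), a cap-binding factor, had 68.8 RPKM in testis, against 0.7 in intestine and 0.7 in carcass, while elongation factor 1-alpha (PgR004_g050), which delivers tRNA to every ribosome, had 1161 RPKM in testis, against 1341 in intestine and 888 in carcass. Of 192 ribosomal protein genes 11 were higher and none lower (range lower 0 to 4; median −0.19), 8 of the 11 eliminated; a retained P0 gene (PgR012_g118) had 402 RPKM in testis, against 4.6 in intestine and 3.6 in carcass. The highest ribosomal gene by mean, S28 (PgR004_g249), had 367 RPKM in testis, against 831 in intestine and 684 in carcass. The genes higher in testis named here were at most 5.1 RPKM in both somatic tissues, and the most abundant member of each list was within 4-fold of soma.

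Ubiquitin ligase and chaperone lists had medians near that of all genes and smaller shares higher in testis than the 14.3% of all genes, with some members at high testis levels. Of 180 cullin, F-box, BTB and kelch genes 19 were higher and none lower; their median of 0.02 was −0.08 to −0.47 with TPM, median-of-ratios or upper-quartile scaling or with the 20 highest genes left out of the scaling. The BTB gene KCTD16 (PgR002_g252, inside an opposite-strand gene) had 1727 RPKM in testis, against 35.5 in intestine and 17.7 in carcass by its most abundant transcript, but its difference was −0.79 by its longest transcript. Of 89 chaperone genes 7 were higher (range 4 to 7) and 2 lower, with a median of 0.06 that was −0.08 to −0.41 under the same 4 scalings. A small heat shock gene named OV25-1 (PgR102_g007) had 132 RPKM in testis, against 1.6 in intestine and 0.5 in carcass; another of that name, PgR016_g063, had 1.2 RPKM in testis, against 18.9 in intestine and 68.2 in carcass. Genes of 1 name thus lay in both classes. Myosin VI (PgE114_g001), the minus-end motor that segregates sperm contents in C. elegans, had 115 RPKM in testis, against 0.1 in intestine and 1.1 in carcass, and the myosin-7 gene PgB21_g044 had 627 RPKM in testis, against 17.7 in intestine and 6.7 in carcass.

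**Figure D2:**
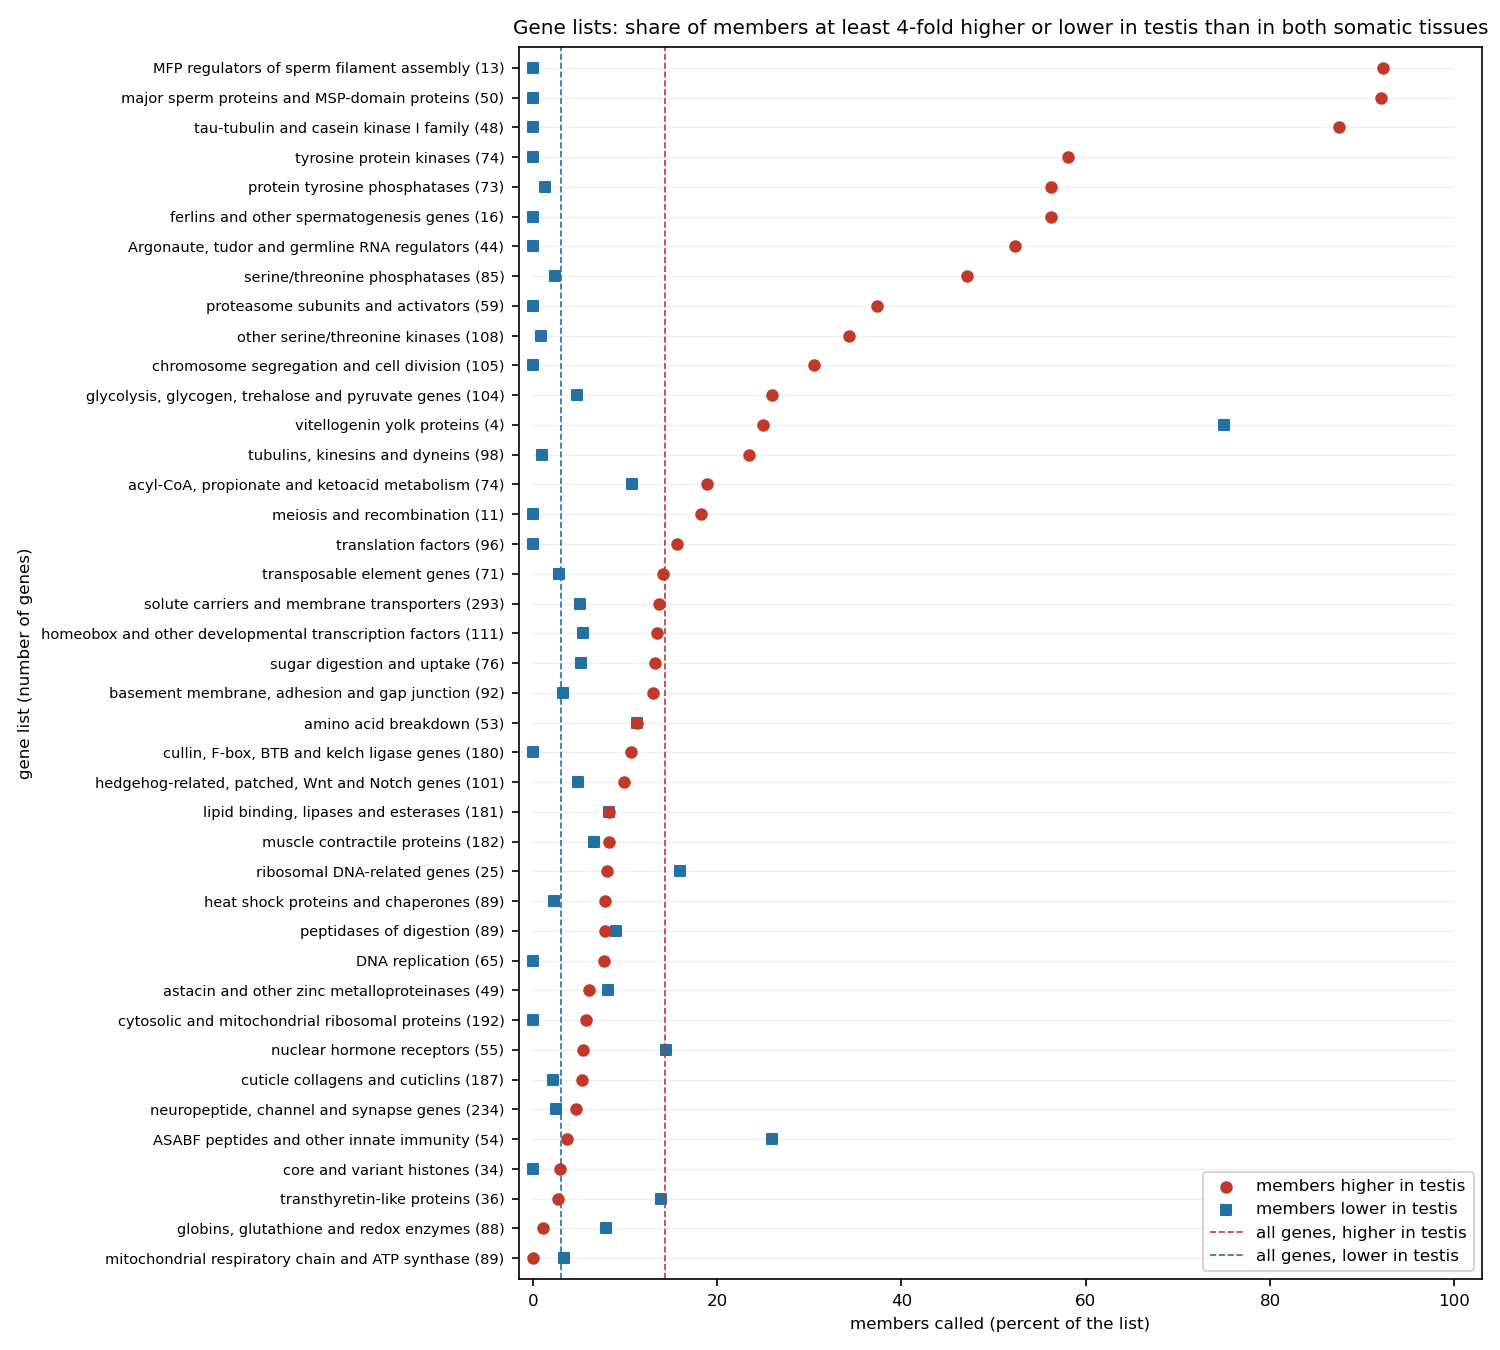
Each row is a gene list, with 1 point for the percent of its members at least 4-fold higher in testis than in both intestine and carcass and 1 point for the percent at least 4-fold lower; dashed lines give the same over all genes. The major sperm protein, MFP and tau-tubulin kinase lists reach furthest toward higher in testis, and the vitellogenin and immunity lists furthest toward lower.

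Enzymes of energy and amino acid metabolism were split between genes high in testis and genes high in soma, at times under 1 name. Against 14.3% of all genes, the shares higher in testis were 26% for glycolysis and related genes and 18.9% for acyl-CoA genes. They were 11.3% for amino acid breakdown and 0% for the respiratory chain. The shares lower in testis were 4.81%, 10.8%, 11.3% and 3.37% in that order, against 3.04% of all genes. Of 104 genes of glycolysis, glycogen, trehalose and pyruvate 27 were higher and 5 lower (range lower 4 to 17; median −0.43), and of 74 acyl-CoA, propionate and ketoacid genes 14 were higher and 8 lower (range lower 7 to 15; median −0.82); 12 of the 27 and 8 of the 14 lay in eliminated DNA. Enzymes on the way from branched-chain amino acids through propionyl-CoA to succinate had testis genes. Branched-chain aminotransferase (PgB36X_g004), the first step, had 487 RPKM in testis, against 10.8 in intestine and 4.9 in carcass. The 2-oxoisovalerate dehydrogenase alpha subunit (PgR067_g024), the second, had 398 RPKM in testis, against 5.4 in intestine and 4.0 in carcass, which gave a difference of 5.96. Propionyl-CoA carboxylase beta (PgE039_g005) had 505 RPKM in testis, against 10.8 in intestine and 4.9 in carcass. The alpha chain of that enzyme (PgR002_g232) had 648 RPKM in testis, against 694 in intestine and 431 in carcass, and was in neither class, so the 2 subunits did not show the same pattern. Methylmalonyl-CoA epimerase (PgE067_g001) and mutase (PgE073_g002) follow it. The epimerase had 333 RPKM in testis, against 8.4 in intestine and 2.9 in carcass, and the mutase had 209 RPKM in testis, against 5.8 in intestine and 1.9 in carcass. By enzyme, 1 of 1 aminotransferase, 2 of 7 2-oxoisovalerate dehydrogenase, 2 of 4 carboxylase, 1 of 1 epimerase, 3 of 4 mutase and 1 of 4 succinyl-CoA ligase genes were higher in testis; these enzymes were picked after their values had been seen. Among the 7 2-oxoisovalerate dehydrogenase genes 1 was lower in testis. The counts include overlapping genes. Mutase genes PgE575_g001 and PgE575_g002 span the same interval on opposite strands, and carboxylase gene PgE039_g006 lies within the span of PgE039_g005.

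Pyruvate, citrate cycle and sugar enzymes differed from one to the next. The pyruvate dehydrogenase complex, which turns pyruvate into acetyl-CoA, had 8 of 19 genes higher in testis, 6 of them eliminated, and none lower than both somatic tissues. Its E1 alpha gene PgE097_g003 had 900.1 RPKM in testis, against 23.4 in intestine and 6.9 in carcass, and its E1 beta gene PgR033_g019 had 704 RPKM in testis, against 16.2 in intestine and 9.1 in carcass. Other genes of the complex were led by 1 somatic tissue and in neither class. E1 beta gene PgR085_g006 had 26.4 RPKM in testis, 16 in intestine and 760 in carcass. E1 alpha gene PgR011_g113 had 29.3, 435 and 62.1 RPKM. The 19 genes include regulatory kinase and phosphatase genes, in neither class. Of the 8, PgE371_g001 and PgE371_g002 span the same interval on opposite strands. Phosphoenolpyruvate carboxykinase had 5 of 8 genes higher. Its gene PgR044_g051 had 738 RPKM in testis, against 21.9 in intestine and 11.2 in carcass. Unlike PgE097_g003 and PgR033_g019, it was at 821 RPKM in ovary and 84.8 in embryo. Phosphofructokinase, the committed step of glycolysis, had 1 of 2 genes higher, PgR003_g204, with 411 RPKM in testis, against 11.3 in intestine and 6.2 in carcass. By enzyme, 3 of 8 2-oxoglutarate dehydrogenase, 1 of 3 citrate synthase, none of 11 isocitrate dehydrogenase, none of 5 enolase, 2 of 8 hexokinase and 4 of 8 trehalase genes were higher in testis, and all of these enzymes but citrate synthase had 1 gene lower. These genes were found by words in the annotation, so the totals take in other enzymes of similar name. An ATP-citrate synthase, an enolase-phosphatase and a ketohexokinase gene are among them, each in neither class. The lower enolase gene, PgR020_g070, lies on the opposite strand inside PgR020_g068, of the same annotation. The lower 2-oxoglutarate dehydrogenase gene, PgR124_g015, lies in the same way inside PgR124_g014. Both outer genes were in neither class. Glyceraldehyde-3-phosphate dehydrogenase (PgB20_g009), the highest gene of the list by mean, was in neither class, with 308 RPKM in testis, against 2052 in intestine and 1109 in carcass. Glutamate dehydrogenase and similar genes of amino acid breakdown had 6 of 53 higher and 6 lower (range lower 3 to 11; median −0.68), with tryptophanyl-tRNA synthetase, a translation gene, among the 6 higher. The mitochondrial pyruvate carrier gene PgR004_g054 was listed at 0 in testis and had 87.7 RPKM in intestine and 10.4 in carcass. Of 89 respiratory chain and ATP synthase genes none was higher and 3 were lower (range lower 3 to 6; median −0.53). As TPM, 1 gene of that list was higher.

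Of 2015 annotation texts carried by 2 or more genes, 282 had 2 or more genes in the classes. Among these, 30 had a gene in each class, with 43 genes higher in testis and 40 lower. A shared text does not make genes copies of each other, and 1 of the 30 reads only domain containing protein. For 2-oxoglutarate dehydrogenase the lower gene, PgR124_g015, lies inside PgR124_g014 on the opposite strand. The set of 30 texts was assembled after the values had been seen, and near-identical genes could share reads. Glutamate dehydrogenase, which links glutamate and the citrate cycle, was one: PgR006_g043 had 359 RPKM in testis, against 7.3 in intestine and 6.2 in carcass, and PgR059_g040 had 65.8 RPKM in testis, against 1812 in intestine and 329.6 in carcass. Trehalase, which splits the sugar trehalose, was another: PgB04_g176 had 244 RPKM in testis, against 6.8 in intestine and 2.0 in carcass, and PgB14X_g002 had 5.8 RPKM in testis, against 117 in intestine and 87.5 in carcass. In both pairs the gene higher in testis was at most 7.3 RPKM in soma. Actin gene PgR070_g023 had 295 RPKM in testis, against 15.9 in intestine and 58.3 in carcass, and actin gene PgR037_g109 had 42.5 RPKM in testis, against 1265 in intestine and 223 in carcass. For myophilin, a muscle calponin, PgR071_g054 had 541 RPKM in testis, against 12.2 in intestine and 10.3 in carcass, and PgR056X_g018 had 1.4 RPKM in testis, against 39.7 in intestine and 2642 in carcass. The actin gene lower in testis was led by intestine and the myophilin gene lower in testis by carcass, so the pairs did not share 1 somatic tissue. L-asparaginase gene PgR059_g021 had 357 RPKM in testis, against 5.0 in intestine and 4.0 in carcass, and PgR209X_g008 had 1.2 RPKM in testis, against 27.4 in intestine and 8.2 in carcass.

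**Figure D3:**
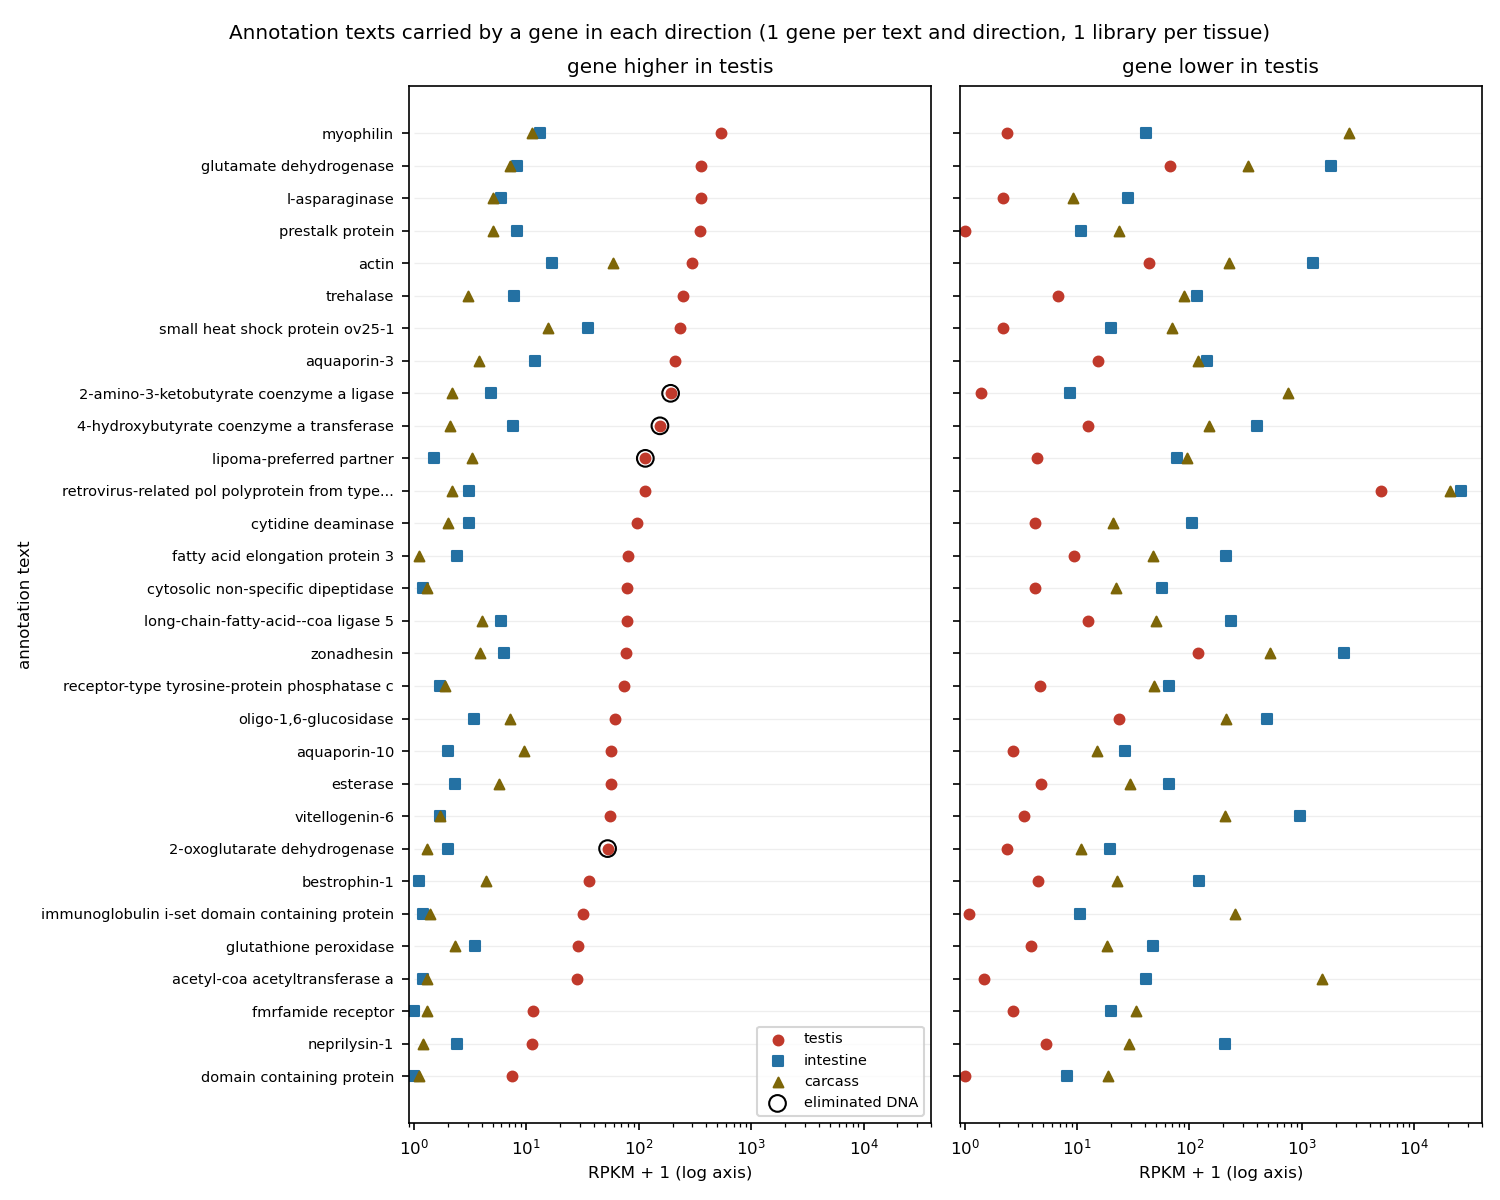
Rows are the annotation texts with a gene in each class; the left panel gives the gene higher in testis and the right panel the gene lower in testis, as RPKM + 1 on a log axis in testis, intestine and carcass. The testis point lies right of both somatic points in the left panel and left of both in the right panel, which follows from the choice.

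Transport, surface and developmental genes held members in both classes. The shares higher in testis were 13.7% for transporters, 13.5% for developmental factors and 9.9% for hedgehog-related, patched, Wnt and Notch genes. None of these exceeded the 14.3% of all genes. The shares lower in testis were 5.12%, 5.41% and 4.95%, against 3.04% of all genes. Of 293 solute carrier and transporter genes 40 were higher and 15 lower (range lower 8 to 42; median −0.42). Solute carrier 40 member 1 (PgE023_g003), the ferroportin iron exporter of other animals, had 199 RPKM in testis, against 1.5 in intestine and 1.7 in carcass, a difference of 6.21. Aquaporin-3, a water and glycerol channel, had a gene of that name in each class: PgR024_g114 with 209.6 RPKM in testis, against 11 in intestine and 2.8 in carcass, and PgR035X_g050 with 14.5 RPKM in testis, against 143 in intestine and 119 in carcass. The proton myo-inositol cotransporter gene PgR035X_g046 had 45 RPKM in testis, against 1633 in intestine and 306 in carcass. Of 111 homeobox and other developmental factor genes 15 were higher and 6 lower (range lower 3 to 9; median 0.00). The eliminated homeobox gene ceh-18 (PgE052_g002), whose C. elegans relative acts in the gonad sheath, had 67.1 RPKM in testis and was listed at 0 in intestine, carcass, ovary and embryo. The T-box 2 gene PgR012_g187 had 95.6 RPKM in testis, against 6.4 in intestine and 1.9 in carcass by its most abundant transcript, while its difference was −3.02 by its longest transcript. The opposite-strand T-box gene inside it, PgR012_g188, had 81.4 RPKM in testis, against 4.4 in intestine and 1.3 in carcass, and −0.37 by its longest transcript. On the lower side, homeobox gene ceh-20 (PgR074X_g046), a Hox cofactor, had 2.1 RPKM in testis, against 65.7 in intestine and 30.7 in carcass, and lin-39 (PgR078_g015), a Hox gene of the mid-body, had 1.4 RPKM in testis, against 16.1 in intestine and 20.7 in carcass. Hedgehog-related, patched, Wnt and Notch genes had 10 of 101 higher and 5 lower (range lower 3 to 5), with a median of 0.00 that was −0.09 to −0.25 under 3 scalings. Warthog protein 1 (PgR010_g005), a hedgehog-related secreted protein, had 59.7 RPKM in testis, against 0.5 in intestine and 0.7 in carcass, and the Notch-like gene PgR024_g021 had 1.0 RPKM in testis, against 51.9 in intestine and 149 in carcass.

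Lists named for body wall, muscle and neurons had smaller shares higher in testis than the 14.3% of all genes, and each held some genes with high testis levels. The shares were 5.35% for cuticle, 13.0% for basement membrane, 8.24% for muscle and 4.70% for neuropeptide, channel and synapse genes. In the same order, the shares lower in testis were 2.14%, 3.26%, 6.59% and 2.56%, against 3.04% of all genes. Of 187 cuticle collagen and cuticlin genes 10 were higher in testis and 4 lower (median 0.00, or −0.04 with upper-quartile scaling). Collagen 99 (PgR116_g013) had 663 RPKM in testis, against 12.9 in intestine and 29.7 in carcass, its neighbour PgR116_g014 had 417 RPKM in testis, against 4.6 in intestine and 16.8 in carcass, and cuticlin-1 (PgR028_g090) had 255 RPKM in testis, against 6.4 in intestine and 3.3 in carcass. All 3 were at most 29.7 RPKM in soma. Of 92 basement membrane, adhesion and gap junction genes 12 were higher and 3 lower (range lower 1 to 7; median −0.72), 7 of the 12 being innexins, the gap junction proteins of invertebrates. The type IV collagen gene next to collagen 99, PgR116_g015, inside an opposite-strand gene, had 718 RPKM in testis, against 8.8 in intestine and 24.7 in carcass. Of 182 muscle contractile genes 15 were higher and 12 lower (range lower 11 to 22; median −0.80), 13 of the 15 higher genes being annotated as myosins, among them unconventional myosins that carry cargo rather than contract muscle. Of 234 neuropeptide, channel and synapse genes 11 were higher and 6 lower (range lower 3 to 10; median −0.36); neuropeptide receptor 15 (PgR002_g096) had 83.5 RPKM in testis, against 2.8 in intestine and 0.5 in carcass. A vitellogenin-6 gene, PgR057_g055, had 54.4 RPKM in testis, against 0.7 in intestine and 0.7 in carcass, and a sucrase gene, PgR015_g054, had 172 RPKM in testis, against 1.9 in intestine and 2.2 in carcass. Transposable elements had 10 of 71 higher and 2 lower (range lower 0 to 4, median 0.00). The share higher, 14.1%, was close to the 14.3% of all genes. The 10 were led by an R2-type Pol gene (PgR022X_g048) with 113 RPKM in testis, against 2.1 in intestine and 1.2 in carcass. In eliminated DNA, 3 LINE-1 genes were at 28.3, 32.5 and 45.1 RPKM in testis and at most 0.9 RPKM in soma.

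Genes lower in testis included those of digestion and yolk, with intestine highest. Of 4 vitellogenin genes 3 were lower and 1 higher (median −8.10). The 3 lie together on a scaffold whose name ends in X, and their yolk product is made in the intestine of female nematodes. PgR126X_g018 had 2.4 RPKM in testis, against 961 in intestine and 206 in carcass, with a difference of −5.93; the intestine library is labelled male. Its neighbours PgR126X_g019 and PgR126X_g020 lie inside it on the opposite strand, and PgR126X_g020 had the most extreme difference of all, −6.04, with 1.1 RPKM in testis, against 628 in intestine and 137 in carcass. Digestive peptidases had 8 of 89 genes lower and 7 higher (range lower 5 to 11; median −0.32), the autophagy protease atg4a being 1 of the 7. Cathepsin D (PgR074X_g003), an aspartic protease, had 29.6 RPKM in testis, against 799.7 in intestine and 248 in carcass. Aminopeptidase N (PgR003_g017), which frees amino acids at the gut surface, had 80.8 RPKM in testis, against 2322 in intestine and 333 in carcass, and cathepsin B-like gene PgB04_g152 had 10.6 RPKM in testis, against 327 in intestine and 106 in carcass. In each of these genes intestine exceeded carcass by 3-fold or more. Sugar digestion and uptake had 4 of 76 genes lower and 10 higher (range lower 3 to 12; median −0.24). These shares were 5.26% lower and 13.2% higher, against 3.04% and 14.3% of all genes. Sucrase-isomaltase (PgR007_g176) had 117 RPKM in testis, against 3376 in intestine and 505 in carcass; the adjacent maltase-glucoamylase (PgR007_g177), with 127 RPKM in testis, against 3508 in intestine and 481 in carcass, had a difference of −1.91 and was in neither class. Of 49 astacin and other zinc metalloproteinase genes 4 were lower and 3 higher (range lower 2 to 6; median −0.21); neprilysin-2 (PgR023_g037) had 9.2 RPKM in testis, against 315 in intestine and 57.5 in carcass. Of 181 lipid binding, lipase and esterase genes 15 were lower and 15 higher (range lower 11 to 26; median −0.54), among the lower ones a fatty acid-binding protein gene (PgR005X_g221) with 4.0 RPKM in testis, against 221 in intestine and 74.9 in carcass.

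Defence and detoxification genes were lower in testis than in both somatic tissues in larger part than all genes were. Of 54 ASABF and other innate immunity genes 14 were lower and 2 higher (median −1.42). ASABF peptides are antibacterial defensin-like peptides of Ascaris. ASABF-alpha (PgR019_g012) had 0.9 RPKM in testis, against 81.7 in intestine and 940.3 in carcass, and ASABF-beta (PgR004_g225, inside an opposite-strand gene) had 0.8 RPKM in testis, against 28.8 in intestine and 155 in carcass. Both were led by carcass, while the C-type lectin gene PgR010_g147, of a sugar-binding family, was led by intestine: it had 478 RPKM in testis, against 11305 in intestine and 2637 in carcass. The C-type lectin gene PgR010_g098, on the other side, had 696 RPKM in testis, against 19.2 in intestine and 38.2 in carcass, and was at 832 RPKM in ovary and 3.7 in embryo. Of 36 transthyretin-like genes, a nematode family of secreted proteins, 5 were lower and 1 higher (range lower 3 to 9; median −3.51), and of 88 globin, glutathione and redox genes 7 were lower and 1 higher (range lower 4 to 12; median −0.94). Glutathione S-transferase 1 (PgR074X_g043), which couples glutathione to toxic compounds, had 28.8 RPKM in testis, against 589.8 in intestine and 362 in carcass, and peroxiredoxin (PgR109_g007) had 51.3 RPKM in testis, against 312 in intestine and 241 in carcass. Some acyl-CoA genes were lower in testis and led by carcass. For acetyl-CoA acetyltransferase A, gene PgR127_g002, the level was 0.5 RPKM in testis, against 39.8 in intestine and 1522 in carcass. Gene PgR002_g104, a medium-chain acyl-CoA dehydrogenase, had 3.8 RPKM in testis, against 156 in intestine and 197 in carcass, a difference of −5.03. The 2-methyl branched-chain enoyl-CoA reductase gene (PgR002_g106), whose Ascaris enzyme forms branched fatty acid end products in body-wall muscle, had 1.3 RPKM in testis, against 30.1 in intestine and 1762 in carcass.

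Nuclear hormone receptors, body-wall genes and ribosomal DNA-related genes also had members in the lower class. The shares lower in testis were 14.5% for the receptor list and 16% for ribosomal DNA-related genes, against 3.04% of all genes. They were 6.59% for muscle contractile genes and 2.14% for cuticle genes, the latter under that of all genes. Of 55 receptor list genes 8 were lower and 3 higher (median −1.18), and 3 to 15 were lower across the other scalings; 1 of the 3 higher genes, PgE035_g002, is a receptor-binding protein. The receptor gene nhr-14 (PgR021_g043) had 4.3 RPKM in testis, against 91.7 in intestine and 30.7 in carcass, and nhr-121 (PgR012_g171), on the other side, had 70.1 RPKM in testis, against 4.9 in intestine and 1.5 in carcass. Paramyosin (PgR131_g003), a thick-filament protein, had 0.6 RPKM in testis, against 6.2 in intestine and 621 in carcass, and the troponin gene PgB12X_g027 had 1.0 RPKM in testis, against 10.1 in intestine and 2174 in carcass. Cuticle collagen 34 (PgR046_g036) had 1.9 RPKM in testis, against 21.3 in intestine and 7161 in carcass. In these 3 the lower class was reached by intestine levels of 6.2 to 21.3 RPKM, far under carcass, and all 3 left the class when the signal shared between tissues, described below, was subtracted. The collagen gene PgR059_g044 (inside an opposite-strand gene) was in the class with a difference of −2.16, but at 0.22 by its longest transcript. The intermediate filament gene ifa-1 (PgR129_g010), a structural protein of worm epithelia, had 62.2 RPKM in testis, against 1444 in intestine and 315 in carcass. Of 25 ribosomal DNA-related genes 4 were lower and 2 higher (range lower 1 to 8; median −1.37): TAR1 (PgR046_g003) had 281 RPKM in testis, against 4309 in intestine and 4537 in carcass, and was at 566 RPKM in ovary and 25985 in embryo. A type-1 R2 element gene (PgR139_g003), inside an opposite-strand gene, had 5026 RPKM in testis, against 26256 in intestine and 20565 in carcass, and was at 10076 RPKM in ovary and 85011 in embryo. Both were highest in embryo. With the 20 highest genes left out the median of the list was −0.91.

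Some genes were shared by testis and 1 somatic tissue. Testis and carcass were both 4-fold or more above intestine, with 5 RPKM or more, in 138 genes, or 0.918%, and testis and intestine were both above carcass in 93, or 0.619%. Tyrosine phosphatase gene PTPN22 (PgR049_g043) had 56.5 RPKM in testis and 49.7 in carcass, was listed at 0 in intestine, and was at 0 RPKM in ovary and 0.1 in embryo. Fatty-acid and retinol-binding protein 1 (PgR067_g037), a secreted nematode lipid carrier, had 455 RPKM in testis, against 10.3 in intestine and 208 in carcass, and L-threonine 3-dehydrogenase (PgR036_g099) had 173 RPKM in testis, against 4.0 in intestine and 155 in carcass. Testis and carcass were within 4-fold of each other in these 3 genes. With intestine, the xylulose kinase gene PgR070_g014 had 128 RPKM in testis, against 106 in intestine and 13.8 in carcass, and histone H3 (PgR012_g077) had 370.0 RPKM in testis, against 124 in intestine and 19.4 in carcass. In 20 genes testis was 4-fold or more above intestine and 4-fold or more below carcass, and in none was it above carcass and below intestine; this difference was not tested.

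Genes abundant in testis had a low and narrow level in both somatic libraries. Of the genes with 100 RPKM or more in testis, 266 had ovary and embryo at 1% of testis or less, a choice that did not use intestine or carcass. Their median level in intestine was 1.69% of testis, with quartiles of 1.19% and 2.42%, and in carcass 1.13%, with quartiles of 0.929% and 1.39%. The 59 of them in eliminated DNA had medians of 1.56% in intestine and 1.13% in carcass, and the 207 in retained DNA had 1.70% and 1.13%. The quartiles of eliminated and retained genes overlapped. In the other direction, 102 genes with 100 RPKM or more in intestine and ovary at 1% or less were at a median of 3.64% of intestine in testis (quartiles 2.88% and 5.05%), at 19.6% in carcass and at 10.3% in embryo. For 100 genes abundant in carcass, with ovary and embryo at 1% of carcass or less, the median was 0.0503% of carcass in testis and 0.445% in intestine. Where this signal came from was not tested. With these median shares subtracted, an alternative added after the data were seen, 2146 of the 2149 genes higher in testis and 274 of the 457 genes lower in testis stayed in their class. Of the lower genes named above and looked up singly, PgB12X_g027, PgR003_g017, PgR004_g054, PgR007_g176, PgR023_g037, PgR035X_g046, PgR037_g109, PgR046_g036, PgR059_g040, PgR059_g044, PgR129_g010, PgR131_g003 and PgR139_g003 left it. The L-asparaginase gene PgR209X_g008 was not looked up singly. Among the genes lower in testis, 117 had carcass at 25% of intestine or less, 57 had intestine at 25% of carcass or less, and 283 had both within 4-fold.

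**Figure D4:**
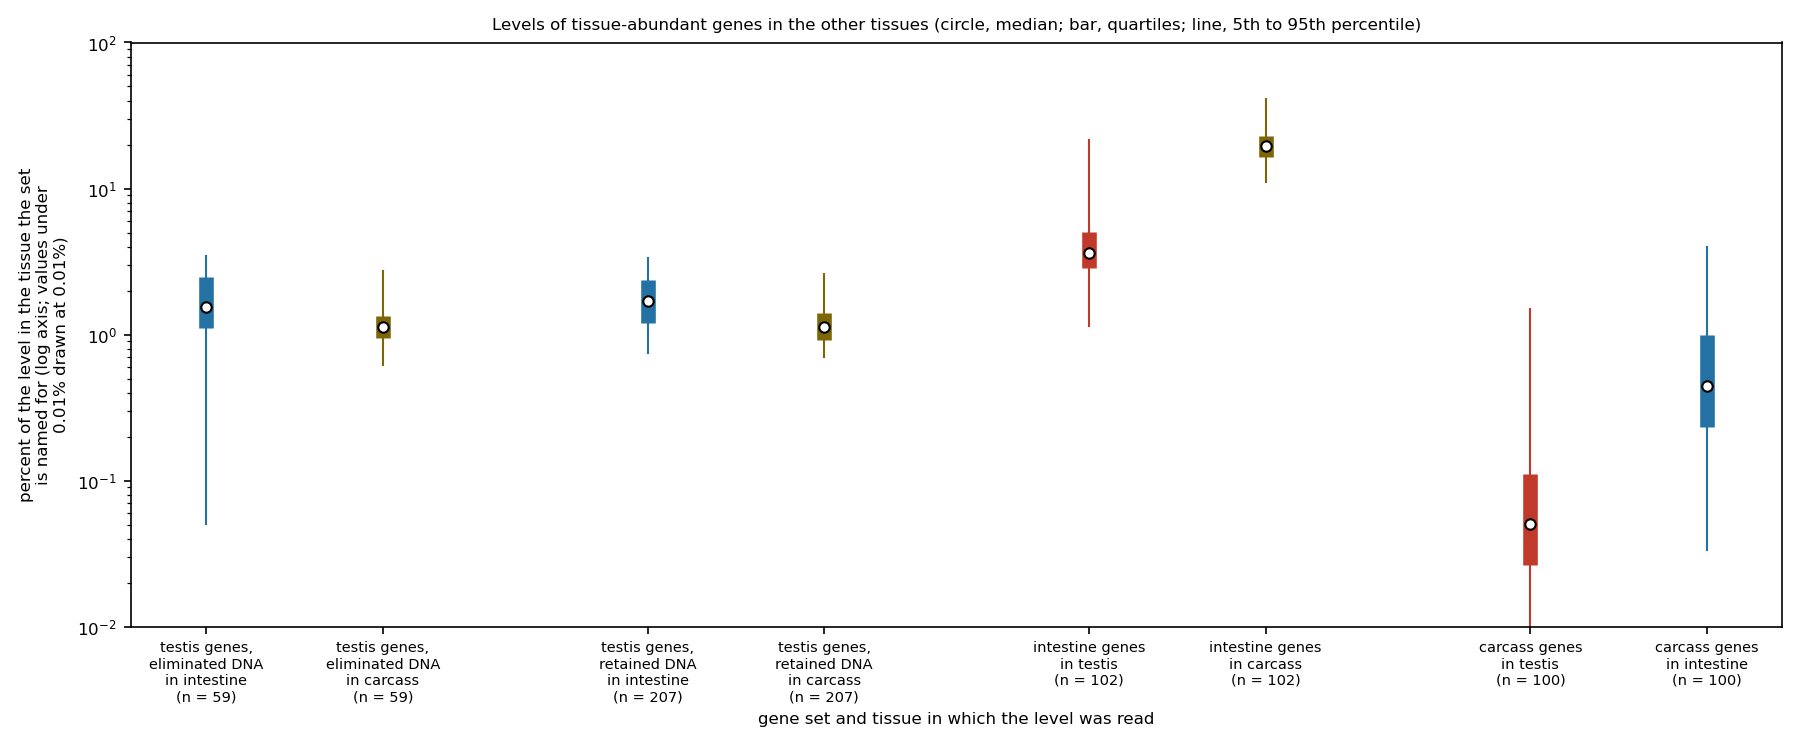
Level of genes abundant in 1 tissue as a percent of that tissue, on a log axis, read in the other tissues; circles are medians, thick bars quartiles and lines the 5th to 95th percentile over genes. Testis genes sit near 1% to 2% in intestine and carcass whether their DNA is eliminated or retained, and intestine genes are higher in carcass than in testis.

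Genes in DNA that somatic cells discard were far more often higher in testis than retained genes were. Of 985 genes that the authors' table marks as eliminated, 618 were higher in testis, or 62.7%, against 10.9% of retained genes. Only 1 was lower in testis, nuclear receptor coactivator 2 (PgE645_g001), named here after its values were seen. Of the 691 eliminated genes with 5 RPKM or more in testis, intestine or carcass, 89.4% were higher in testis. Among 8937 retained genes under the same filter it was 17.1%. The eliminated genes passed this filter mostly through testis, where 680 reached 5 RPKM, against 87 in intestine and 61 in carcass. Their filtered share therefore rests in part on the testis values that also make the call. Eliminated genes made up 28.8% of the genes higher in testis, 0.219% of those lower and 6.55% of all genes. A share of the eliminated genes did have signal in soma: 99 reached 5 RPKM and 51 reached 10 RPKM in intestine or carcass. Of 138 with 100 RPKM or more in testis, 15 had intestine at 20% of testis or more, and these were singled out after their values were seen. In 14 of the 15 the ratios were nearly constant, at 24.7% to 33.6% of testis in intestine and 40.4% to 45.8% in carcass. The RNA helicase gene dhx8 (PgE060_g001), the highest, had 7303 RPKM in testis, against 2106 in intestine and 3126 in carcass, and was at 3596 RPKM in ovary and 3595 in embryo. The type 1 phosphatase isozyme 2 gene PgE071_g003 had 986 RPKM in testis, against 288 in intestine and 420.0 in carcass. These genes came from several scaffolds and carried unlike annotations.

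Features that the classes did not use also differed. Scaffolds whose names end in X, a letter that the sources used here do not explain, held 2862 genes, of which 3.49% were higher in testis, against 16.8% of 12165 other genes. Among retained genes the shares were 3.16% of 2849 and 12.9% of 11193. X-named scaffolds held 4.65% of the genes higher in testis, 23.2% of those lower and 19.0% of all. The testis median was 2.8 RPKM for their genes, against 5.0 for other genes, and the ovary median 9.5 RPKM, against 6.3. Genes on X-named scaffolds thus had a lower median in testis and a higher one in ovary.

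A spliced leader is a short RNA joined to the start of many nematode messages, and a TeloPrime mark comes from a library of capped 5′ ends. A spliced leader mark was present for 21.7% of genes higher in testis, 47.9% of genes lower and 33.4% of all. By level, taken as the highest of the 3 tissues, the share in genes higher in testis was 23.8% at 5 to 20 RPKM, 22.4% at 20 to 100 and 17.4% at 100 or more. In genes of neither class at the same levels it was 43.9%, 46.2% and 46.1%. TeloPrime marks did not divide the classes this way: genes higher in testis had 12.6%, 32.1% and 68.8% by level and genes of neither class had 7.97%, 18.0% and 53.6%. Within the class, a spliced leader mark was present for 13.7% of genes higher in testis than all 4 other tissues and for 40.7% of those within 4-fold of ovary or under it; a TeloPrime mark was present for 41.3% and 20.4%. The marks thus differed in opposite directions between these sets. The 5′ libraries came from 1 mixed sample of unstated makeup, and the share of testis RNA in it was not given.

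**Figure D5:**
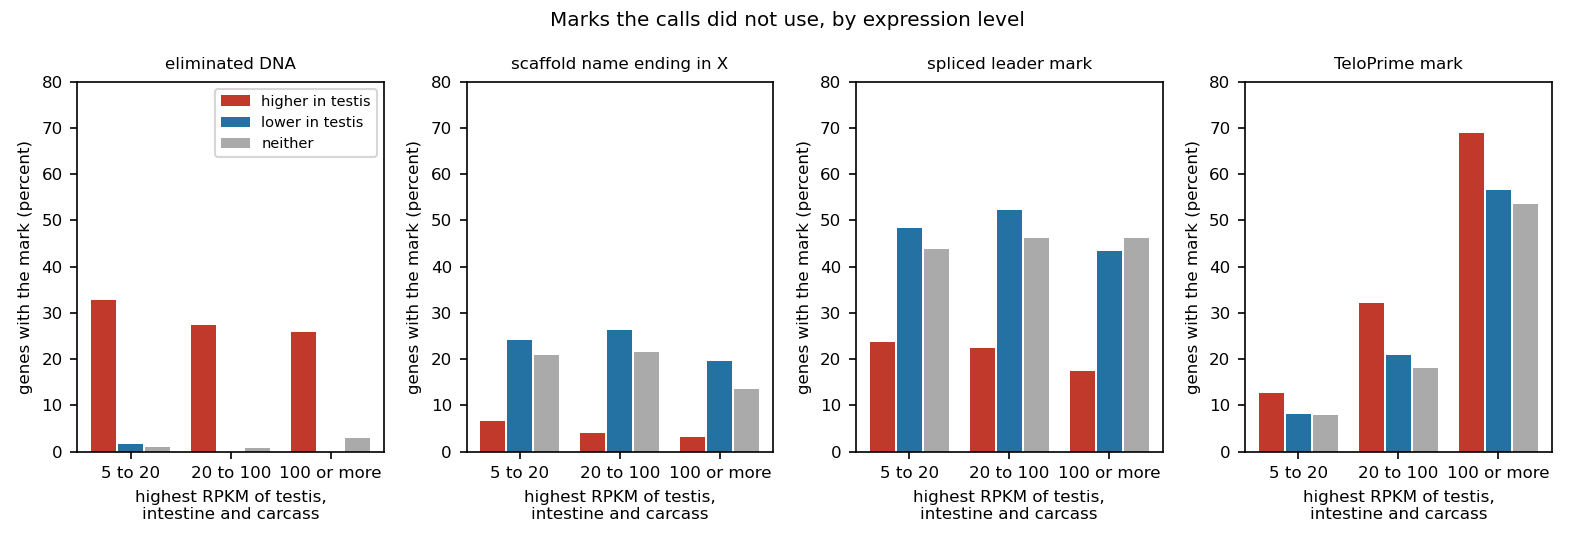
Percent of genes with a spliced leader mark, a TeloPrime mark, a place on an X-named scaffold or in eliminated DNA, by the highest RPKM of testis, intestine and carcass, for genes higher in testis, lower in testis and in neither class. At every level genes higher in testis have the lowest spliced leader and X shares and the highest eliminated share.

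Genes higher in testis lay next to each other more often than all genes did. Of 1814 of them with a next gene on the scaffold, 617 (34.0%) were followed by another, against 12.9% of all genes. Among retained genes it was 389 of 1495 (26%), against 11.0%. Genes lower in testis were followed by another in 77 of 447 cases, 17.2%, against 3.10%. Runs of 4 or more genes higher in testis numbered 63 and held 271 genes, the longest having 6. The highest lay on scaffold PgR002 between positions 4432553 and 4542616, where genes PgR002_g264 to PgR002_g269 ranged over 35.4 to 15477 RPKM in testis. PgR002_g264, which the files annotate only as hypothetical, had the highest testis value of all 15027 genes, with 15477 RPKM in testis, against 130.1 in intestine and 157 in carcass, and was at 2.8 RPKM in ovary and 19.4 in embryo. PgR002_g266 in the same run, inside an opposite-strand gene, had 15063 RPKM in testis, against 119 in intestine and 129 in carcass. A second run on that scaffold, PgR002_g248 to PgR002_g252 at positions 4234190 to 4258216, had 573 to 9227 RPKM in testis. The largest difference of all, 7.11, was in PgR039_g080, also hypothetical and inside an opposite-strand gene, with 9536 RPKM in testis, against 68.0 in intestine and 62.0 in carcass. These 3 hypothetical genes fall outside the naming rule and were chosen after their values were seen. The highest testis value in these files thus belonged to a gene with no protein name.

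Most genes higher in testis than soma were also higher than ovary and embryo. Of the 2149, 1512 (70.4%) were 4-fold or more above ovary, 568 were within 4-fold and 69 were 4-fold or more below it. Against embryo the counts were 1548 above (72.0%), 578 within and 23 below. Above all 4 other tissues stood 1425 genes, 411 of them eliminated. The lists divided on this point: all 46 major sperm protein genes and 41 of 43 tyrosine kinase genes were above ovary, against 7 of 23 RNA regulator, 2 of 32 chromosome segregation and none of 5 replication genes. The sperm and kinase genes thus stood above ovary, and most of the division genes did not. Of the 457 genes lower in testis, 115 were 4-fold or more lower than in ovary as well and 157 than in embryo, while 56 were above ovary and none above embryo.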

How the data were processed

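The authors deposited 1 table of RPKM values per transcript and tissue, rounded to 1 decimal, for 40487 transcripts of 15027 genes on 884 scaffolds, with 1 library per tissue and marks for eliminated genes, spliced leaders and TeloPrime ends. The submitters' processing notes name TopHat2 and Cufflinks; no source used here gives the genome build, the treatment of multi-mapping reads or the strand setting, and reads shared by near-identical genes cannot be told apart. A gene was the transcript name without its transcript number, and its value was that of its transcript of highest mean over the 5 tissues. Testis and somatic values were subtracted as log2(RPKM + 1), and a call needed a difference of 2 and 5 RPKM. With 1 library per tissue there is no test and no p-value. Depths were read from the steps between low deposited RPKM values, in steps of 50000 reads, and exact Poisson intervals (95%) and the limit of 3 reads for a listed 0 cover counting error only.

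Genes were named by rule: the 30 largest differences and the 20 highest levels in each direction with 20 RPKM or more and an informative annotation, the 4 highest called members of each list in each direction and the member with the highest mean, and the 12 largest differences of each class shared by testis and 1 somatic tissue. The 580 genes contained in a gene of the other strand, 352 of them in one with the same annotation, were marked. The members and lists were chosen with earlier results of these data known. The sets of tissue-abundant genes, the enzyme sets and the pairs of 1 annotation were added after seeing the data. No reference sequence was used here, so no sequence is shown. Alternatives were other pseudocounts, thresholds, scalings, transcript choices and libraries. Python 3.11.15, pandas 2.3.3, numpy 2.4.6, scipy 1.17.1 and matplotlib 3.10.9 were used. Some genes counted in the lists are not reported here by name.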

Additional observations from a re-analysis of the deposited data

Results flagged for a closer look

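In 20 genes testis was 4-fold or more above intestine and 4-fold or more below carcass, and in 0 genes it was above carcass and below intestine, so the 2 somatic tissues gave opposite directions for these genes; the difference was not tested, since each tissue is 1 library. Troponin T (PgR080_g031), a regulator of the thin filament, led them with 21.2 RPKM in testis, against 1.6 in intestine and 483.5 in carcass, and was named after its values were seen.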

How the results depend on the processing

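No paired analysis was possible because each tissue is 1 library without replicates, and for the same reason no replicate could be left out. Genes higher in testis numbered 1435 to 2945 over the 17 alternatives, all within 1.5 times of the 2149 reported. Genes lower in testis, 457 as reported, numbered 169 with a pseudocount of 5, 1014 at 2-fold, 127 at 8-fold, 231 at 20 RPKM or more, 759 with median-of-ratios scaling, 867 with upper-quartile scaling, 293 as TPM, 1219 against intestine alone, 1359 against carcass alone and 285 with shared signal subtracted. The share of calls that were higher in testis, 82.5% as reported, was 80.1% with a pseudocount of 0.1, 89.5% with 5, 74.4% at 2-fold, 92.6% at 8-fold, 86.4% at 20 RPKM or more, 74.0% with median-of-ratios, 69.2% with upper-quartile scaling, 87.2% as TPM, 78.9% with the 20 highest genes of each tissue left out, 84.2% by the longest transcript, 66.1% against intestine alone, 67.1% against carcass alone, 88.5% with shared signal subtracted and 77.1% without eliminated genes. The last 4 were added after seeing the data. Over 12908 expressed genes the median difference from the higher somatic tissue, −0.10 as deposited, shifted by −0.17, −0.45 and −0.32 with median-of-ratios scaling, upper-quartile scaling and the 20 highest genes left out. Among named genes the direction turned for PgR033_g017 (fatty acid-binding protein 9) at 0.91 with transcripts summed and 0.11 by the longest transcript. By the longest transcript it also turned for PgR002_g252 at −0.79, PgR012_g187 at −3.02, PgR012_g188 at −0.37 and PgR059_g044 at 0.22. The cause was not tested. With shared signal subtracted, PgR007_g115 (C-type lectin) was at 1.98 against the lower somatic tissue only. The subtraction left carcass at 0 RPKM, against 2.93 in testis and 2043 in intestine, so testis stayed far under intestine. Depth limits genes near 0, above all in intestine, the shallowest of the 3 libraries.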
